A study of Mus musculus with 89 samples.

Results

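The genes described here are 39 chromatin writers, erasers and remodellers of the mouse: enzymes and subunits that add or remove marks on histones and DNA, read them, or move nucleosomes. They were taken by name from a fixed list, which was chosen with earlier results of these data known. All 39 were found among the 24411 genes of the deposited tables. They fall into the polycomb repressive complexes PRC2 (Ezh1, Ezh2, Eed, Suz12, Jarid2) and PRC1 (Bmi1, Ring1, Rnf2, Kdm2b), heterochromatin (Cbx3, Cbx5, Ehmt1), DNA methylation (Dnmt1, Dnmt3a, Tet1, Tet2, Tet3), deacetylases (Hdac1, Hdac2, Hdac3, Sirt1, Sirt2), histone demethylases (Kdm1a, Kdm5b, Kdm6b), methyltransferases of histone H3 lysine 4 and lysine 36 (Kmt2a, Setd2, Nsd1), the BAF complex (Smarca2, Smarca4, Smarcb1, Smarcc1, Smarcd1, Smarce1, Arid1a) and the ISWI and CHD remodellers (Smarca5, Chd4, Chd7, Chd8).

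The cells came from the dentate gyrus of homozygous Nestin:CFPnuc mice (strain C57BL/6), which carry a nuclear cyan fluorescent protein driven by the Nestin promoter, and were sorted singly by fluorescence. The transgene was carried by the mice of every group. Each of the 89 samples is 1 cell, 48 cells from mice of 2 months and 41 cells from mice of 4.5 months. The authors' table puts 60 cells in a class named qNSC, 18 in aNSC and 11 in IPC, read here as quiescent neural stem cells, activated neural stem cells and intermediate progenitor cells. It also gives each cell a colour, and the qNSC cells hold 25 green, 26 red and 9 blue cells. What the colours stand for and how the classes were made is not stated, and should the classes rest on these same expression values, a part of every class difference would follow from that choice. The aNSC class was split at 10 counts of Pdgfra, the growth factor receptor of oligodendrocyte precursors, which is no member. The 7 Pdgfra-high cells held 531 to 3057 counts of it and the 11 Pdgfra-low cells held 0. No label names the animal of a cell, so every group counts as 1 sample, no test was run, and the differences given are sizes within these cells.

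In resting stem cells and in their dividing progeny, the same DNA is packed differently, and the proteins named above do that packing. PRC2 places methyl groups on lysine 27 of histone H3 through its catalytic subunit Ezh2 or the related Ezh1, with Eed and Suz12 as core partners, and PRC1 binds the mark and ubiquitinates histone H2A. The BAF complex and the ISWI and CHD proteins spend ATP to slide or evict nucleosomes, Dnmt1 copies DNA methylation at replication, and the Tet enzymes oxidise it. In the adult hippocampus Ezh2 is known as a factor that sustains progenitor divisions, and Chd7 is known for its part in stem cell quiescence and in neuron formation.

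Promoters were searched for binding words of the E2F factors, which many replication genes carry. The windows of RefSeq (build GRCm38.p6) cover 250 bases before to 50 bases after a gene's start. They were present for 33 of the 39 members and were searched on both strands for the 4 words TTTGGCGC, TTTCCCGC, TTTGCCGC and TTTCGCGC. A word was found for 6 of the 33 members (18.2%), against 4.99% of the 7683 measured genes in the table and 2.61% of all 27025 symbols. A gene with several starts counts if any window holds a word, and 8 members had more than 1 window. By window, the shares were 13.3% of the members' 45 windows and 4.03% of the 9984 windows of measured genes. The 6 runs below are the surroundings of the first match in each gene, 5′ to 3′ on the gene's strand, with the word in capitals.
Ezh2 (chr6:47595011-47595063, minus strand): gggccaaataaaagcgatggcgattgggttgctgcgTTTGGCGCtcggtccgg
Suz12 (chr11:79992856-79992930, plus strand): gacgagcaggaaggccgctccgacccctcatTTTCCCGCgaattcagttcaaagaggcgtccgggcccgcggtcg
Smarcd1 (chr15:99702120-99702199, plus strand): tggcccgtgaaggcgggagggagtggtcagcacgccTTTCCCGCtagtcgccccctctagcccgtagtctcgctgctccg
Dnmt1 (chr9:20952799-20952873, minus strand): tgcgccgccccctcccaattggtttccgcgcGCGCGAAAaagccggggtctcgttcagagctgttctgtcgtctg
Cbx3 (chr6:51470412-51470491, plus strand): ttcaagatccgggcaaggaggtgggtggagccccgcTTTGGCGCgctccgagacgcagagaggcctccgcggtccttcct
Arid1a (chr4:133753997-133754076, minus strand): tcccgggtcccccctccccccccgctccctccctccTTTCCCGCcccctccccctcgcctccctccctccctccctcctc
The word of Ezh2 begins at base 4 of the transcript. The others begin 219 bases before their transcript's start in Suz12 and Dnmt1, 168 in Cbx3, 131 in Smarcd1 and 55 in Arid1a. Dnmt1, Cbx3 and Arid1a had further windows without a word. For Dnmt1 and Arid1a these include the window at the outermost annotated 5′ end of the gene. The Dnmt1 match is on the opposite strand, and the same window holds a further word at base 34 of the transcript. A match is a run of letters and no measured binding. Of the genes with a word, Ezh2, Suz12 and Smarcd1 passed the size rule given below as higher in IPC cells, while Dnmt1, Cbx3 and Arid1a did not. A link between the words and the levels was not tested.

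The cells held between 234607 and 1896072 counts (median 912391). The median number of genes with a read was 3713.5 in qNSC, 4145 in Pdgfra-low aNSC, 4999 in Pdgfra-high aNSC and 4647 in IPC cells. All 7 Pdgfra-high cells held 10 or more counts in at least 50% of the oligodendrocyte precursor markers other than Pdgfra, and Gfap, a gene of radial stem cells, was at 0 counts in them. The endothelial and the mural list each reached that extent in 1 Pdgfra-low and 1 qNSC cell, and the oligodendrocyte list in 2 qNSC cells and 1 Pdgfra-high cell. At least 10 counts of Hopx, which marks quiescent stem cells, were found in 59 of 60 qNSC, 10 of 11 Pdgfra-low, 0 of 7 Pdgfra-high and 7 of 11 IPC cells, and of Eomes, a factor of intermediate progenitors, in 7 of 11 IPC cells and in 0 cells of the other groups. Of the 2-month cells 38 of 48 held 10 or more counts of Y-linked genes, against 0 of 41 at 4.5 months, and Xist or Tsix reached 10 counts in 0 and 37 cells. Age and the sex of the animals therefore cannot be told apart.

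Most members were read in a minority of cells. Levels between genes were compared as TPM, which is scaled by transcript length. The highest mean TPM over the 89 cells was that of Smarcb1, a core BAF subunit, at 186, followed by the tubulin and histone deacetylase Sirt2 at 175, Hdac2 at 170, Cbx3 at 111, Hdac1 at 106 and Hdac3 at 103. The lowest were Chd8 at 1.31, the H3 lysine 27 demethylase Kdm6b at 1.47 and Tet3 at 3.05. Smarcb1 had a read in 72 of 89 cells and Kdm6b in 9, so that Kdm6b lies just inside the limit of 10% of cells that was set for a gene to count as measured. All 39 members passed that limit, as did 9989 genes in all.

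**Figure D1:**
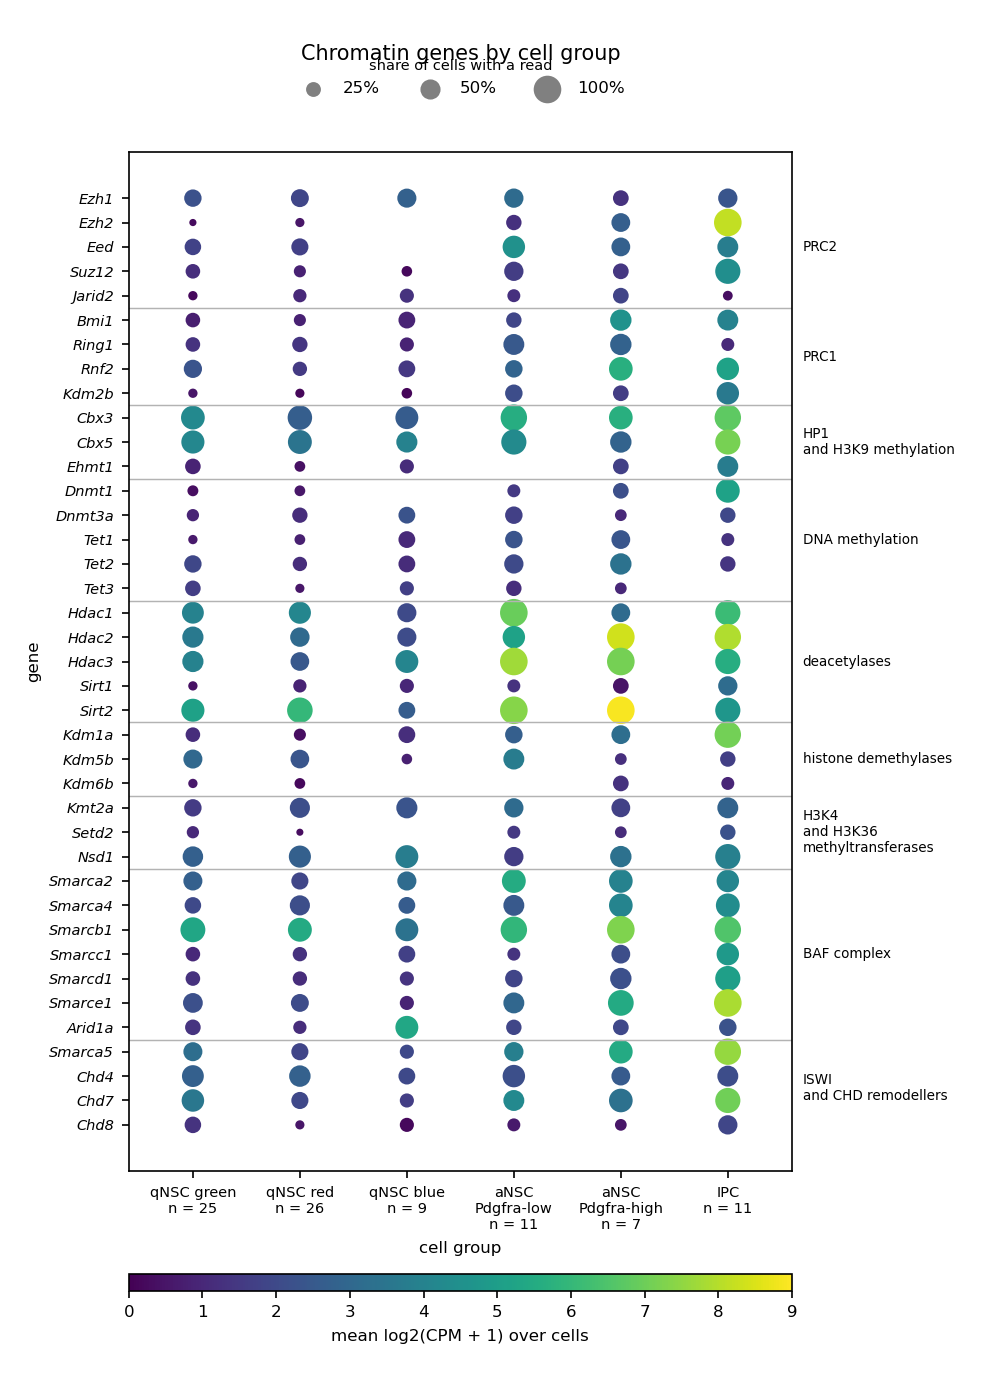
Mean log2(CPM + 1) (colour) and the share of cells with a read (dot area) for each of the 39 genes (rows, by complex) in 6 cell groups (columns). Ezh2 is the only gene of PRC2 at 100% of IPC cells, where its mean is 8.19. A missing dot means that no cell had a read, as for Tet3 in IPC and for Ehmt1 and Kdm6b in Pdgfra-low aNSC.

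More members were read per cell in aNSC and IPC cells than in qNSC cells. A median of 12.5 of the 39 members (range 5 to 23) was read in qNSC cells, 18 (12 to 24) in Pdgfra-low aNSC, 18 (12 to 28) in Pdgfra-high aNSC and 24 (17 to 29) in IPC cells. The ranges overlap between neighbouring groups. After thinning to 444835 reads per cell, which 80 cells held, the medians were 12, 17.5, 17 and 23, over 55, 8, 7 and 10 cells. The summed TPM of the 39 genes had a median of 844 in qNSC, 1760 in Pdgfra-low aNSC, 2181 in Pdgfra-high aNSC and 2938 in IPC cells. Its lowest IPC cell was at 1700, below the highest qNSC cell at 2044.

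**Figure D2:**
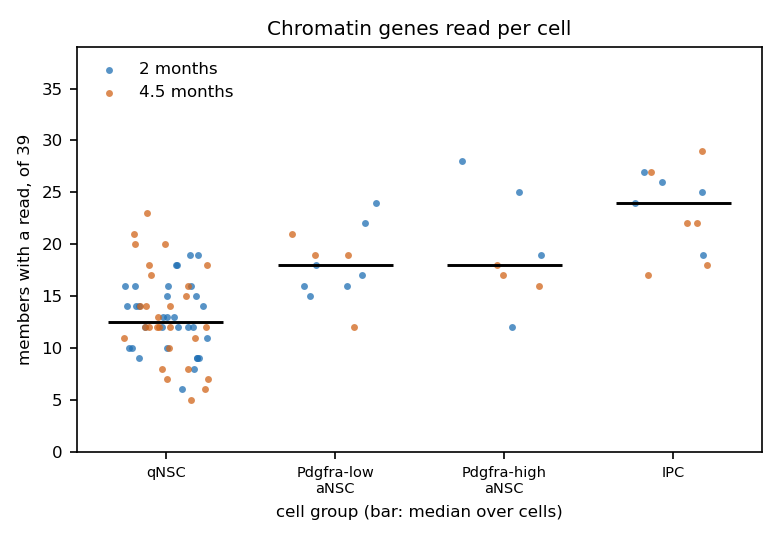
Number of the 39 genes with a read in each cell (y axis) by cell group (x axis), with 1 point per cell, coloured by age, and a bar at the median. The medians are 12.5, 18, 18 and 24 from qNSC to IPC, and the points of neighbouring groups overlap.

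Levels in the groups are given first, by role, as mean log2(CPM + 1) ± SD over cells and the number of cells with a read, where CPM is the count per 1000000 counts of the cell. Of the catalytic subunits of PRC2, Ezh2 (chromosome 6, 47530139 to 47595341) was at 0.33 ± 1.45 in qNSC (3 of 60 cells), 1.25 ± 2.58 in Pdgfra-low aNSC (3 of 11), 2.71 ± 3.41 in Pdgfra-high aNSC (3 of 7) and 8.19 ± 1.10 in IPC (11 of 11). Ezh1 (chromosome 11, 101191115 to 101226463) was read in 23 of 60, 5 of 11, 2 of 7 and 5 of 11 cells, with means of 2.17 ± 3.09, 3.10 ± 3.75, 1.27 ± 2.73 and 2.37 ± 3.29. In TPM, Ezh2 thus made up 15.8% of the pair in qNSC, 29.97% in Pdgfra-low aNSC, 71.0% in Pdgfra-high aNSC and 91.6% in IPC. In 3 of 60 qNSC cells and in all 11 IPC cells it exceeded Ezh1. The 2 aNSC shares rest on 3 cells with Ezh2 reads each.

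With both ages pooled, the core partners of Ezh2 followed separate patterns. Suz12 (chromosome 11, 79993106 to 80034123) was at 0.87 ± 2.13 in qNSC (11 of 60), 1.60 ± 2.21 in Pdgfra-low aNSC (5 of 11), 1.41 ± 2.59 in Pdgfra-high aNSC (2 of 7) and 4.42 ± 2.81 in IPC (9 of 11). Eed (chromosome 7, 89954654 to 89980983), the subunit that binds the finished mark, was at 1.47 ± 2.88 (17 of 60), 4.53 ± 3.71 (7 of 11), 2.73 ± 3.58 (3 of 7) and 3.79 ± 4.21 (6 of 11) in the same order. Between IPC and Pdgfra-low cells, Suz12 differed by 2.00 at 2 months and 3.49 at 4.5 months, and Eed by 2.51 and -3.89. It shares exons with the listed gene E230029C05Rik, and since the library kit does not mark strand, their reads cannot be separated with certainty. Ezh2, Eed and Suz12 were all read together in 0 of 60 qNSC cells (exact 95% interval up to 5.96%), 2 of 11 Pdgfra-low, 2 of 7 Pdgfra-high and 5 of 11 IPC cells. Thinned to the common depth, the counts were 0 of 55, 0 of 8, 2 of 7 and 5 of 10. Jarid2, an accessory subunit of PRC2, was read in 9 of 60 qNSC cells and in 1 of 11 IPC cells.

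Among PRC1 genes, Bmi1 (chromosome 2, 18677018 to 18686629), the ring finger partner of the catalytic subunits, was at 0.80 ± 2.15 in qNSC (13 of 60), 1.90 ± 3.27 in Pdgfra-low aNSC (3 of 11), 4.55 ± 4.30 in Pdgfra-high aNSC (4 of 7) and 4.01 ± 3.92 in IPC (6 of 11). Of the catalytic pair, Rnf2 made up 71.8% of the TPM of Ring1 and Rnf2 in qNSC, 80.8% in Pdgfra-low aNSC, 84.6% in Pdgfra-high aNSC and 93.2% in IPC. Rnf2 shares exons with Trmt1l in the annotation. Kdm2b, which recruits PRC1 to unmethylated CpG islands, was read in 5 of 60 qNSC and 7 of 11 IPC cells, and it shares exons with Rnf34 and A930024E05Rik.

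Of the heterochromatin proteins, Cbx3 was read in 44 of 60 qNSC, 10 of 11 Pdgfra-low, 5 of 7 Pdgfra-high and 10 of 11 IPC cells. Cbx5 had a mean of 7.15 ± 3.59 in IPC and of 3.83 ± 3.36 in qNSC, yet per length Cbx3 held 78.0% to 96.0% of the TPM of the pair in these 4 groups. Ehmt1, a methyltransferase of H3 lysine 9, was read in 12 of 60 qNSC cells, 0 of 11 Pdgfra-low, 2 of 7 Pdgfra-high and 6 of 11 IPC cells.

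Dnmt1 (chromosome 9, 20907209 to 20959888), the maintenance DNA methyltransferase, was at 0.38 ± 1.44 in qNSC (6 of 60), 1.50 ± 3.33 in Pdgfra-low aNSC (2 of 11), 2.15 ± 3.69 in Pdgfra-high aNSC (2 of 7) and 5.18 ± 3.43 in IPC (8 of 11). Dnmt3a, which methylates new sites, lay between 1.03 ± 2.73 and 1.97 ± 3.37 in the 4 groups and was read in 14 of 60, 4 of 11, 1 of 7 and 3 of 11 cells. It shares exons with its antisense gene Dnmt3aos. Of their summed TPM, Dnmt1 held 22.3% in qNSC and 81.6%, 83.1% and 83.6% in Pdgfra-low aNSC, Pdgfra-high aNSC and IPC. The 2 aNSC shares rest on 2 cells with Dnmt1 reads each, and in Pdgfra-low aNSC the share was 86.9% at 2 months and 0% at 4.5 months. Tet3 was read in 11 of 60 qNSC, 3 of 11 Pdgfra-low, 1 of 7 Pdgfra-high and 0 of 11 IPC cells, with means of 1.17 ± 2.64, 1.19 ± 2.40, 0.99 ± 2.63 and 0. By the limit of 3 counts, 0 of 11 cells allows a share of up to 27.3% of cells with a read, and the upper end of the exact 95% interval is 28.5%.

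The class I deacetylases Hdac1 and Hdac2, which sit in the same corepressor complexes, differed in where they were high. Hdac1 (chromosome 4, 129516104 to 129542713) was at 3.73 ± 3.66 in qNSC (35 of 60), 6.93 ± 1.97 in Pdgfra-low aNSC (11 of 11), 3.12 ± 3.90 in Pdgfra-high aNSC (3 of 7) and 6.15 ± 3.56 in IPC (9 of 11). Hdac2 (chromosome 10, 36974544 to 37001889) was at 3.16 ± 3.73 (30 of 60), 5.19 ± 4.18 (7 of 11), 8.35 ± 0.59 (7 of 7) and 7.93 ± 3.17 (10 of 11). Hdac2 held 51.5% of the TPM of the pair in qNSC, 49.4% in Pdgfra-low aNSC, 83.2% in Pdgfra-high aNSC and 73.6% in IPC. Hdac3, the deacetylase of the NCoR complex, and Sirt2 were read in every aNSC cell of both kinds. Sirt2, which is abundant in oligodendrocytes, had a summed CPM of 532 in Pdgfra-high aNSC, 162 in Pdgfra-low aNSC, 160 in qNSC and 104 in IPC, and its exons overlap Nfkbib.

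Kdm1a (chromosome 4, 136550540 to 136602723), the demethylase of H3 lysine 4 that works with CoREST, was at 0.80 ± 1.98 in qNSC (13 of 60), 2.68 ± 3.80 in Pdgfra-low aNSC (4 of 11), 3.21 ± 4.01 in Pdgfra-high aNSC (3 of 7) and 7.07 ± 2.50 in IPC (10 of 11). Kdm5b, another H3 lysine 4 demethylase, had its highest mean in Pdgfra-low aNSC, 3.75 ± 3.76, and its lowest in Pdgfra-high aNSC, 1.20 ± 3.17. Nsd1, a methyltransferase of H3 lysine 36, was read in 35 of 60 qNSC and 9 of 11 IPC cells. Kmt2a and Setd2 were read in 27 and 5 of 60 qNSC cells and in 6 and 3 of 11 IPC cells.

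Of the ATPases of the BAF complex, Smarca2 (chromosome 19, 26605050 to 26778322) was at 2.42 ± 3.35 in qNSC (24 of 60), 5.52 ± 3.81 in Pdgfra-low aNSC (8 of 11), 3.98 ± 4.01 in Pdgfra-high aNSC (5 of 7) and 4.08 ± 3.86 in IPC (7 of 11). Smarca4 (chromosome 9, 21616169 to 21704230) was at 2.13 ± 3.14 (24 of 60), 2.49 ± 2.60 (6 of 11), 4.04 ± 3.40 (5 of 7) and 4.34 ± 3.63 (8 of 11). Smarca4 was the lesser of the pair in each group by TPM, with 23% of the sum in qNSC, 3.80% in Pdgfra-low aNSC, 30.3% in Pdgfra-high aNSC and 23.7% in IPC. Smarcb1 was read in 45 of 60, 10 of 11, 7 of 7 and 10 of 11 cells. Arid1a, the DNA-binding subunit of 1 form of the complex, was read in 18 of 60, 3 of 11, 2 of 7 and 4 of 11 cells.

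Smarca5, the ISWI ATPase, was at 2.44 ± 3.56 in qNSC (22 of 60), 3.85 ± 4.45 in Pdgfra-low aNSC (5 of 11), 5.46 ± 3.76 in Pdgfra-high aNSC (5 of 7) and 7.59 ± 2.92 in IPC (10 of 11). Chd7 (chromosome 4, 8690406 to 8867659) was at 2.56 ± 3.40 (27 of 60), 4.22 ± 4.16 (6 of 11), 3.33 ± 3.38 (5 of 7) and 7.04 ± 3.59 (9 of 11). Chd4, the ATPase of the NuRD complex, lay between 2.10 ± 2.69 and 2.64 ± 2.77 in the 4 groups, a range smaller than the spread between cells of any of them. Chd8 was read in 12 of 60 qNSC and 5 of 11 IPC cells.

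**Figure D3:**
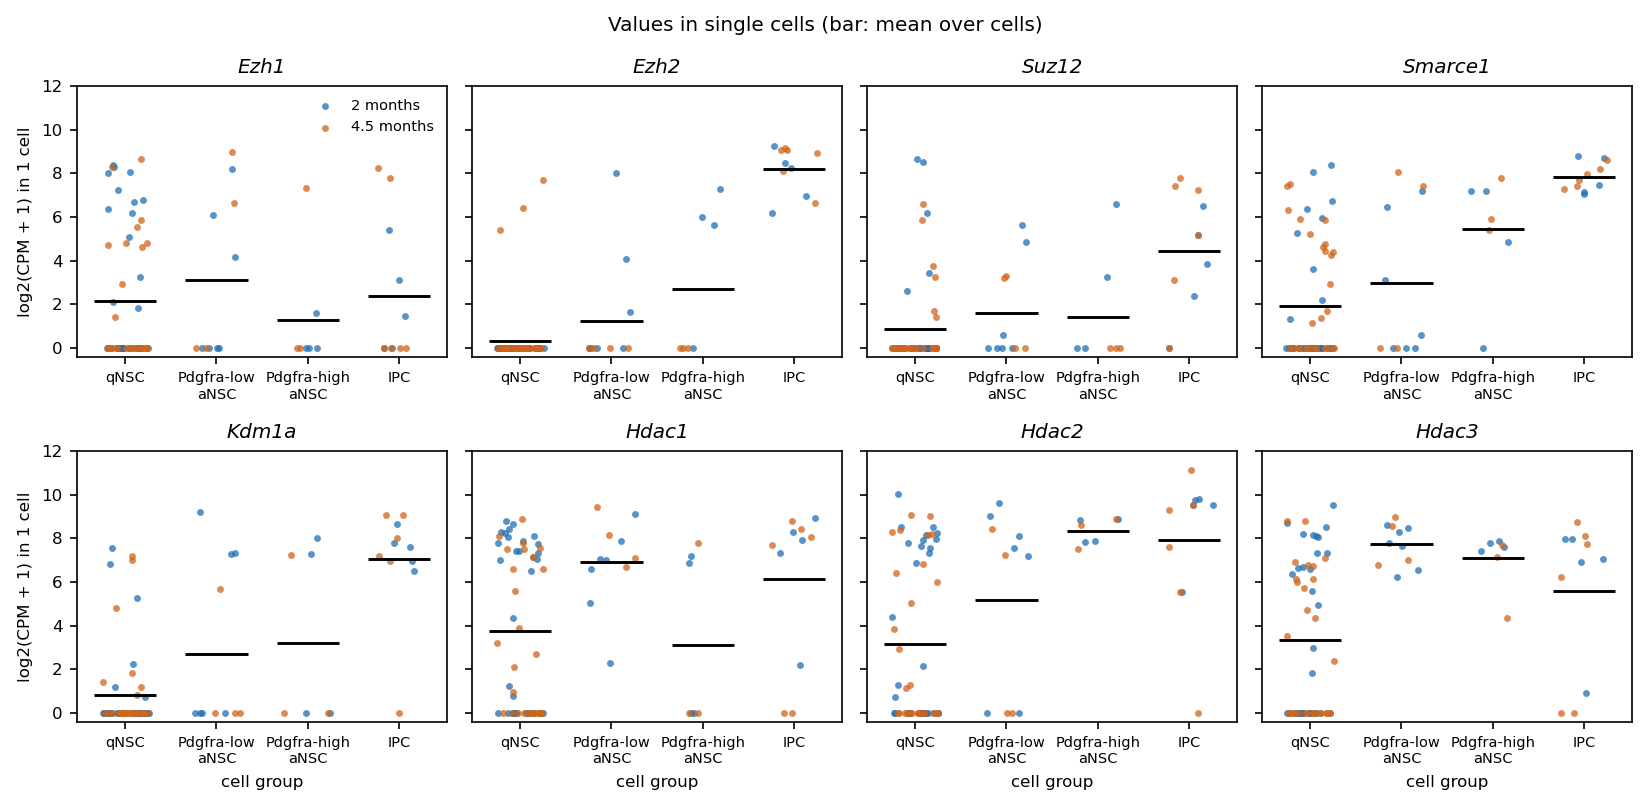
log2(CPM + 1) of 8 genes in each cell (y axis) by cell group (x axis), with 1 point per cell, coloured by age, and a bar at the mean. All 11 IPC cells lie above 0 for Ezh2 and Smarce1, and all 7 Pdgfra-high cells lie above 0 for Hdac2 while 4 of them are at 0 for Hdac1.

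IPC cells were then set against Pdgfra-low aNSC cells, which asks how progenitors differ from activated stem cells. A gene passed the size rule if it differed by at least 1 in mean log2(CPM + 1), by 2-fold or more in summed CPM (the group's pooled counts as CPM) and by 15 or more percentage points in the share of cells read, with all 3 in 1 direction. In IPC cells 15 of the 39 members were higher by this rule and 1 was lower, while the rule took 15.3% of the 9989 measured genes as higher and 16.3% as lower. The median difference was 1.17 over the members and 0.02 over all measured genes. Since the members were chosen with earlier results of these data known, this contrast is a description only. The 15 were Ezh2 and Suz12 of PRC2, Bmi1 and Rnf2 of PRC1, Ehmt1, the deacetylases Hdac2 and Sirt1, Kdm1a, Nsd1, the BAF subunits Smarca4, Smarcc1, Smarcd1 and Smarce1, and Smarca5 and Chd8. The lower member was Tet3. By list, 4 of 7 BAF genes, 2 of 5 PRC2 genes and 2 of 4 PRC1 genes were higher. Of the 5 PRC2 genes, 3 lay below 0 in mean log2(CPM + 1), and the median difference of the 5 was -0.73. Their summed TPM had a higher median in IPC, 398 against 169, with overlapping ranges (92.4 to 749 and 0 to 438). Eed, among those below 0, had a summed CPM of 181.1 in IPC and 98.7 in Pdgfra-low cells. No DNA methylation gene was higher.

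Ezh2 had the largest difference. In the 5 IPC cells of 2 months it was at 70.8, 124.6, 299.0, 350.6 and 600.6 CPM, and in the 6 of 4.5 months at 99.2, 276.2, 490.7, 529.4, 532.3 and 578.9 CPM. In the 11 Pdgfra-low cells it was at 0 CPM in 8 cells and at 2.12, 15.8 and 262 CPM in the others. Every IPC cell thus had reads, and only the highest Pdgfra-low cell reached the IPC range. The summed CPM was 354.8 (95% Poisson interval 343.2 to 366.5) against 9.57 (7.59 to 11.9), a 37.1-fold difference, and the difference in mean log2(CPM + 1) was 6.94. That 1 Pdgfra-low cell carried 93.6% of its group's CPM summed over cells, and without it the ratio was 205. Intervals on sums, and floors, treat reads as independent counts. These reads carry no molecular identifiers and several may stem from 1 molecule, so such intervals may be too narrow. Intervals on shares treat cells as independent draws. Neither kind covers differences between animals.

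Smarce1 (chromosome 11, 99209047 to 99231017), a DNA-binding BAF subunit, was at 130.5 to 439.3 CPM in the 11 IPC cells with a median of 204. In Pdgfra-low cells it was at 0 in 5 cells and reached 270.2 CPM, so the groups overlap. Its means were 7.85 ± 0.65 and 2.99 ± 3.54, a difference of 4.86, and its summed CPM 255.6 against 67.1. Kdm1a differed by 4.39, with 1 IPC cell at 0 and the others from 89.5 to 537.9 CPM, against 7 of 11 Pdgfra-low cells at 0 and a highest value of 588.4. Its 2.24-fold difference in summed CPM was small beside the difference in the share of cells, 90.9% (58.7 to 99.8) against 36.4% (10.9 to 69.2), because that highest cell supplied 61.8% of the Pdgfra-low CPM.

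Smarca5 and Ehmt1 each differed by 3.74. Smarca5 had reads in 10 of the IPC and 5 of the Pdgfra-low cells, and its 2.02-fold difference in summed CPM was just past the limit of 2. It kept its call under 5 of 11 alternatives. It did not pass in thinned cells, where genes had to be read in 50% of cells, after recentring, without the cells under 500000 counts, without those holding markers of other types, or at 2 months alone. Without its highest IPC cell the ratio was 1.75. Ehmt1 had a summed CPM of 105 in IPC and no read in Pdgfra-low cells, which makes it at least 293-fold higher against a floor of 3 counts over the group. Smarcc1, a BAF scaffold subunit whose exons overlap Dhx30, differed by 3.53 (4.85 ± 4.26 against 1.32 ± 2.93) and by 5.41-fold in summed CPM. The other members past the rule differed by 1.27 (Chd8) to 3.19 (Smarcd1), and Suz12 by 12.5-fold in summed CPM. Tet3, with 3 of 11 Pdgfra-low cells and 0 IPC cells read, was at least 44.8-fold lower in summed CPM.

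Single cells moved several of these values. Each member past the rule was computed again without the highest cell of either group, an alternative chosen after the data were seen. Of the 15 higher members, 12 passed both ways. Leaving out the highest cell of the group with the lower level cannot narrow a difference. Only the removal from the group with the higher level could therefore lose a call. Rnf2 (1.97-fold), Smarca5 and Chd8 (a difference of 0.90) did not pass without their highest IPC cell, nor Tet3 (a difference of -0.68) without its highest Pdgfra-low cell. Without the highest Pdgfra-low cell the ratio was 59.6 in place of 4.33 for Sirt1, 68.9 in place of 2.94 for Chd8, 24.7 in place of 12.5 for Suz12, 10.9 in place of 5.41 for Smarcc1, 9.997 in place of 5.64 for Smarca4, 7.01 in place of 3.81 for Smarce1, 4.57 in place of 2.24 for Kdm1a and 3.64 in place of 2.38 for Rnf2. Without the highest IPC cell it was 2.64 in place of 6.91 for Nsd1, 2.62 for Sirt1, 2.31 in place of 4.00 for Bmi1 and at least 189 for Ehmt1.

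A few members missed the rule by a single criterion. Chd7 differed by 2.82 and by 27.3 percentage points, and its ratio of summed CPM was 1.999. Dnmt1 differed by 3.69, with 72.7% against 18.2% of cells read, at a ratio of 1.87. Cbx5 differed by 2.87 and 6.55-fold, with 81.8% of cells read in both groups. In the opposite direction Sirt2 (-2.62), Hdac3 (-2.11) and Kdm5b (-2.09) had the largest negative differences and did not pass.

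**Figure D4:**
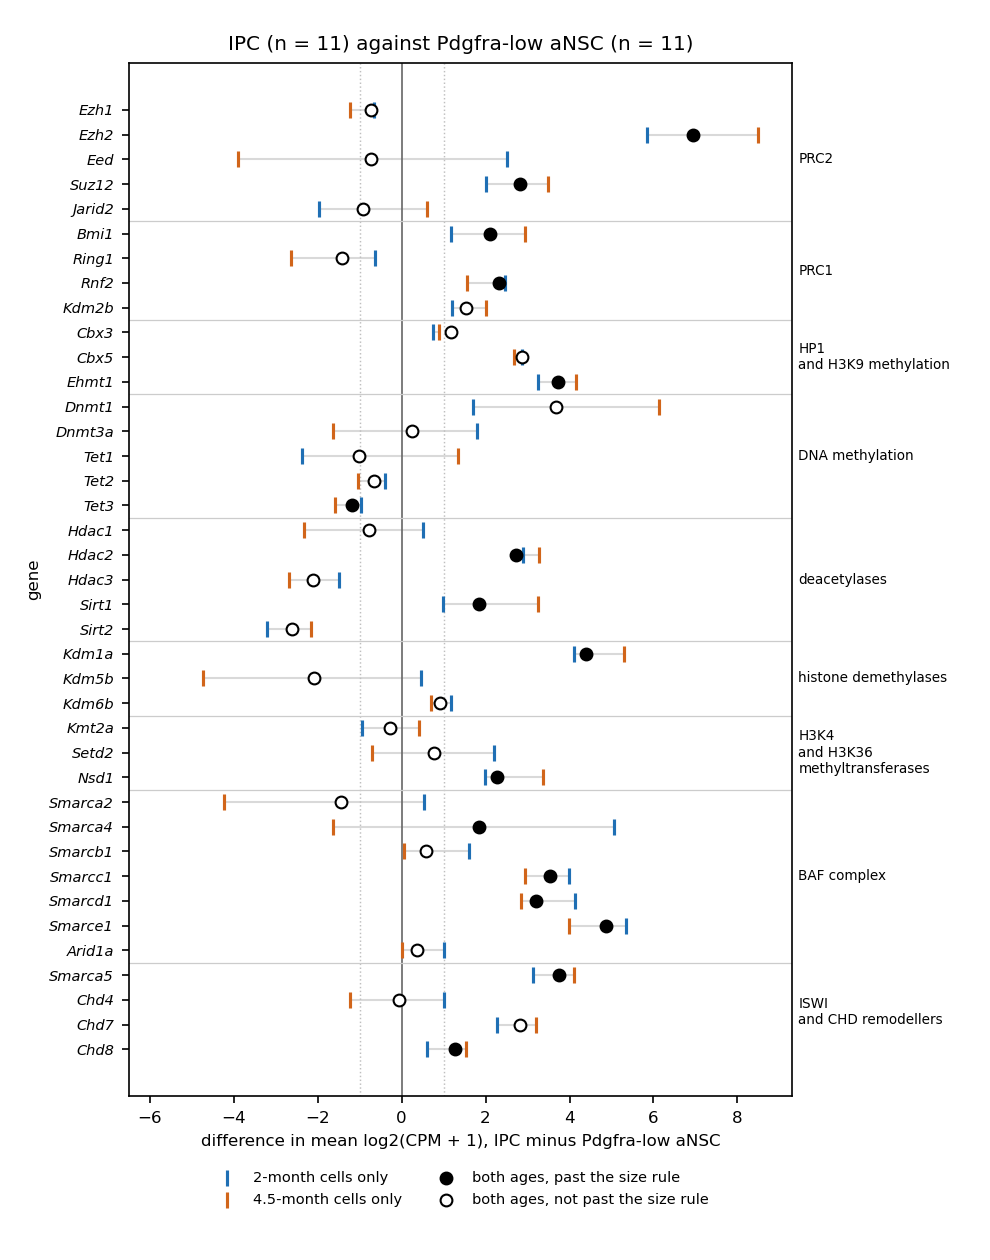
Difference in mean log2(CPM + 1) between IPC and Pdgfra-low aNSC cells (x axis) for each gene (rows, by complex), over both ages (circles, filled where the gene passed the size rule) and within each age (ticks). Ezh2 lies farthest right at 6.94, and the ticks of Smarca4 lie on both sides of 0, at 5.07 and -1.63.

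Within the ages, 14 of the 15 higher members had a positive difference at both, and 7 passed the rule at both. The exception was Smarca4. Its IPC cells of 2 months were at 3.19, 91.0, 224.8, 374.7 and 384.1 CPM, while those of 4.5 months were at 0 in 3 cells and at 2.22, 29.7 and 185.9 CPM in the others. Its difference was 5.07 at 2 months and -1.63 at 4.5 months. Smarca4 also did not pass without the cells under 500000 counts. For Ezh2 the differences were 5.85 and 8.50.

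Cell cycle genes moved with the class. Mki67, a marker of dividing cells, had 10 or more counts in 5 of 11 IPC and 0 of 11 Pdgfra-low cells, Top2a in 5 and 1, and Mcm2, a replication gene, in 9 and 2. The summed CPM of the list of 30 cell cycle genes ran from 168 to 36537 in IPC cells (median 9110) and from 2.12 to 9590 in Pdgfra-low cells (median 485). Markers at 0 in the Pdgfra-low cells were Mki67, Ccnb1, Aurka, Aurkb, Plk1, Ube2c, Cenpf, Kif11 and Nusap1. Ezh2 was read in all 11 IPC cells. The part of the cell cycle genes in the differences of the members was not tested.

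Pdgfra-low aNSC cells were next compared with qNSC cells. The same 11 Pdgfra-low cells enter 3 of the 5 comparisons, which are therefore not independent of each other. In these activated cells 6 of 39 members were higher and 0 lower, beside 13% and 2.78% of all measured genes. The share of members higher was thus near that of all genes. The 6 were the deacetylases Hdac3 and Hdac1, the BAF ATPase Smarca2, Eed, Cbx3 and Kdm2b. Differences were above 0 for 34 of 39 members and 69.7% of all genes, with medians of 0.93 and 0.49. When all differences were shifted so that the median gene lay at 0, 2 members were higher (Smarca2 and Kdm2b) and 1 was lower, and over all genes the rule took 617 as higher and 482 as lower in place of 1303 and 278.

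Hdac3 differed by 4.39 (7.71 ± 0.95 against 3.33 ± 3.53). All 11 Pdgfra-low cells were at 72.8 to 496.6 CPM, whereas the 60 qNSC cells ran from 0 to 726.1 CPM with a median of 3.395, and 31 of them had a read. Hdac1 differed by 3.20, with 11 of 11 cells read against 35 of 60, and a summed CPM of 231.3 (221.1 to 241.9) against 101.7 (99.0 to 104.4). For Hdac3 the highest qNSC cell lay above every Pdgfra-low cell, and for Hdac1 it lay within the Pdgfra-low range at 468.7 CPM, so the groups overlap for both genes. Hdac1 was 1.76-fold higher and did not pass without its highest Pdgfra-low cell, at 678.4 CPM.

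Smarca2 differed by 3.10 and 3.62-fold, Eed by 3.06 and 2.59-fold, Cbx3 by 2.33 and 2.30-fold and Kdm2b by 1.80 and 5.59-fold. One qNSC cell held Kdm2b at 208.9 CPM, and without it the ratio was 25.8. Kdm2b was 3.76-fold higher without its highest Pdgfra-low cell and passed both ways. Smarca2 overlaps the listed gene 4931403E22Rik. All 6 had a positive difference at both ages, and 1 (Eed) passed the rule at both. Cbx3 did not pass without the cells holding markers of other types. Ezh2 differed by 0.92 here, with 3 of 11 against 3 of 60 cells read, and did not pass.

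In the split of the aNSC class, Pdgfra-high cells stood against Pdgfra-low cells with 6 members higher and 3 lower, beside 17.1% and 13.1% of all measured genes. Hdac2, Bmi1, Ehmt1, Smarca4, Ezh2 and Kdm6b were higher, and Hdac1, Ezh1 and Eed were lower. The median difference was 0.31 over the members and 0.20 over all genes. The Pdgfra-high cells also carried the oligodendrocyte precursor markers. Without Pdgfra, which split the cells, the summed CPM of the other 7 ran from 6832 to 15001 in them and from 0 to 212 in the Pdgfra-low cells, with Sox10, Neu4 and Lhfpl3 at 0 in the latter. The part of these markers in the differences of the members was not tested.

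Hdac1 and Hdac2 stood in opposite directions in this split. Hdac1 was at 0 CPM in 4 of the 7 Pdgfra-high cells and at 116.7, 144.2 and 221.6 in the others, and at 3.81 to 678.4 CPM in all 11 Pdgfra-low cells. Its difference was -3.81, with a summed CPM 2.91-fold lower. Hdac2 was at 179 to 472 CPM in all 7 Pdgfra-high cells and at 0 in 4 of the 11 Pdgfra-low cells, which reached 781.5 CPM. Its difference was 3.15 and its summed CPM was 347.3 (333.9 to 361.1) against 165.7 (157.1 to 174.6). The ranges of both genes overlap between the groups. Hdac1 was 2.25-fold lower without its highest Pdgfra-low cell and 5.81-fold lower without its highest Pdgfra-high cell, and passed both ways. Hdac2, at 2.10-fold with all cells, did not pass with TPM, after recentring or at 2 months alone, nor without its highest Pdgfra-high cell, where the ratio was 1.89.

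Bmi1 differed by 2.65 and 6.93-fold, Smarca4 by 1.55 and 3.30-fold (not past the rule without the cells under 500000 counts), and Ezh2 by 1.46 and 4.37-fold. The Ezh2 reads of Pdgfra-high aNSC all came from 2-month cells, at 0, 49.5, 62.6 and 156.4 CPM, whereas the 3 cells of 4.5 months were at 0. Ehmt1 and Kdm6b had reads in 2 of 7 Pdgfra-high cells and in 0 of 11 Pdgfra-low cells, and both were at least 43.8-fold higher. For Kdm6b 1 cell, at 66.98 CPM, held 91.8% of the CPM summed over the group. Without it Kdm6b was at least 3.89-fold higher and did not pass, as it did not with TPM, a pseudocount of 10, genes read in 50% of cells, detection at 10 counts or 2-month cells alone. Ehmt1 was at least 22.7-fold higher without its highest cell and did not pass there, with a pseudocount of 10, or where genes had to be read in 50% of cells. Ezh1 differed by -1.83 and Eed by -1.79, with summed CPM 2.60-fold and 2.27-fold lower. Eed kept its call under 6 of 11 alternatives and did not pass with TPM, in thinned cells, where genes had to be read in 50% of cells, or at either age alone. It was 8.25-fold lower without its highest Pdgfra-high cell. Ezh1 was 1.23-fold lower without its highest Pdgfra-low cell and did not pass, and 261-fold lower without its highest Pdgfra-high cell.

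Of the 6 higher members, 1 (Bmi1) passed without the highest cell of either group, at 3.19-fold and 8.86-fold. Ezh2 (1.71-fold) and Smarca4 (2.70-fold, a difference of 0.94) did not pass without their highest Pdgfra-high cell. Without the highest Pdgfra-low cell the ratios were 24.2 for Ezh2 and 5.85 for Smarca4. Sirt2 differed by 1.55 and 3.29-fold, and it did not pass since it was read in every cell of both groups.

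Within qNSC, the green and red cells were compared, the larger of the colours. Chd7 and Tet3 were higher in green cells and 0 members were lower, beside 5.87% and 3.53% of all measured genes. As shares of the 39 members, neither count lay above that of all genes. Chd7 was read in 16 of 25 green cells (64.0%, exact 95% interval 42.5 to 82.0) and 9 of 26 red cells (34.6%, 17.2 to 55.7), with means of 3.55 ± 3.68 and 1.94 ± 3.03. Tet3 was read in 7 of 25 (28%, 12.1 to 49.4) and 2 of 26 cells (7.69%, 0.95 to 25.1). For both genes the intervals of the green and red shares overlap. Tet3 did not pass without the cells holding markers of other types, nor without its highest green cell, where it was 1.83-fold higher. Without the highest red cell the ratio was 9.63 in place of 3.72 for Tet3 and 6.57 in place of 3.18 for Chd7. Both had a positive difference at each age, at 0.66 and 2.62 for Chd7 and 0.94 and 1.28 for Tet3, and 0 passed the rule at both ages. The summed TPM of the 39 genes had a median of 1174 in green, 729 in red and 780 in blue cells.

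The 9 blue qNSC cells were only described. Ezh2, Eed, Dnmt1, Setd2 and Kdm6b were at 0 in all 9. For each, the limit of 3 counts allows a share of up to 33.3% of cells with a read (upper end of the exact 95% interval 33.6%). How many of all measured genes had no read in these cells is not given. Arid1a was read in 6 of the 9, with a mean of 5.35 ± 4.08, against 7 of 25 green and 5 of 26 red cells at 1.37 ± 2.68 and 1.14 ± 2.46. The depth differed too, with blue cells at a median of 793965 counts, against 1004300 in green and 974500 in red cells.

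Between the ages, 28 qNSC cells of 4.5 months were compared with 32 of 2 months. At 4.5 months Tet2 and Smarcc1 were higher and Ring1 was lower, beside 1.8% and 4.23% of all measured genes. The median difference was -0.02 over the members and -0.14 over all genes. With the median gene shifted to 0, the members past the rule were still 2 and 1, while over all genes the split moved from 180 higher and 423 lower to 229 and 309. As stated, the sex of the animals went with age.

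Tet2 (chromosome 3, 133463679 to 133545139), which oxidises methylated cytosine, was read in 4 of 32 qNSC cells at 2 months (12.5%, 3.51 to 29) and in 14 of 28 at 4.5 months (50%, 30.6 to 69.4). Its means were 0.58 ± 1.78 and 2.47 ± 3.05, and its highest cells were at 159.5 and 267.9 CPM. The summed CPM was 11.6 (10.4 to 12.8) against 41.0 (38.4 to 43.6). The ratio of 3.54 became 7.33 without the highest cell of 2 months and 2.78 without the highest of 4.5 months, and Tet2 passed both ways. In each colour the share of cells read was larger at 4.5 months, with 2 of 15 and 7 of 10 green, 1 of 13 and 5 of 13 red, and 1 of 4 and 2 of 5 blue cells.

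Smarcc1 was read in 5 of 32 and 10 of 28 cells, with a difference of 1.14 and of 2.43-fold in summed CPM, and did not pass without the cells under 500000 counts or after thinning. It also did not pass without its highest cell of 4.5 months, with a difference of 0.89, and without the highest of 2 months the ratio was 17.5. Ring1, the less abundant catalytic subunit of PRC1, was read in 11 of 32 and 4 of 28 cells, and its difference was -1.21 with a summed CPM 3.83-fold lower, or 9.63-fold without its highest cell of 4.5 months. Ezh2 had no read in 32 qNSC cells of 2 months, which by the limit of 3 counts allows a share of up to 9.38% (upper end of the exact 95% interval 10.9%), and was read in 3 of 28 at 4.5 months. All 5 deacetylases and all 3 methyltransferases of H3 lysine 4 and 36 had differences below 0, with medians of -0.51 and -0.11, and 0 of these 8 passed the rule. Differences were above 0 for all 3 histone demethylases, 4 of 5 DNA methylation genes and 5 of 7 BAF genes, while 5898 of the 9989 measured genes lay below 0.

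**Figure D5:**
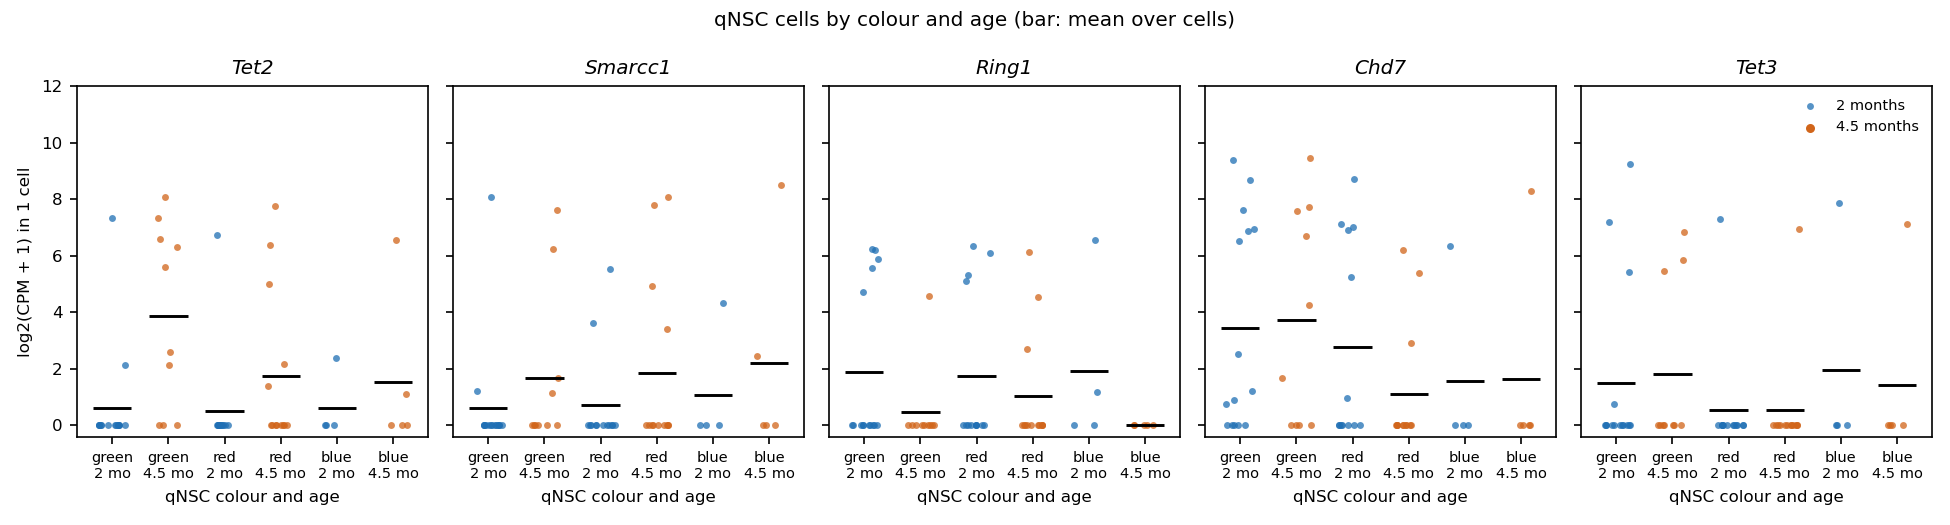
log2(CPM + 1) of 5 genes in each qNSC cell (y axis) by colour and age (x axis), with 1 point per cell and a bar at the mean. For Tet2, 7 of 10 green cells of 4.5 months lie above 0 against 2 of 15 of 2 months, and for Ring1 no blue cell of 4.5 months does.

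Across the 5 comparisons, 9 members passed the rule in 2, 18 in 1 and 12 in 0. No such tally over all measured genes is given beside it, so these counts cannot be read as a trait of the members. The 12 were Jarid2, Cbx5, Dnmt1, Dnmt3a, Tet1, Sirt2, Kdm5b, Kmt2a, Setd2, Smarcb1, Arid1a and Chd4. Further genes of the same pathways came from a list of 140, of which 124 were measured. In IPC against Pdgfra-low aNSC cells, 36 of them were higher and 6 lower, beside 15.3% and 16.3% of all measured genes. Actl6a, an actin-related BAF subunit, had the largest difference at 4.90 (6.44 ± 3.26 against 1.54 ± 2.30), and Sirt7 the most negative at -2.66. For Pdgfra-low aNSC against qNSC, 15 were higher and 4 lower, beside 13% and 2.78% of all measured genes. Ruvbl1 was at 3.47 there and did not pass, and Kdm4b was at -1.50.

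The other 3 comparisons follow in the same terms. Pdgfra-high against Pdgfra-low aNSC had 28 higher and 16 lower, beside 17.1% and 13.1% of all measured genes. They were led by Rbbp5, a subunit of H3 lysine 4 methyltransferases, at 4.98, and Ep400 at -2.84. Green against red qNSC had 12 higher and 3 lower, beside 5.87% and 3.53%, with Baz2b at 2.47 and Phc3 at -1.17. By age in qNSC, 0 were higher and 6 lower, namely Aebp2, Hdac4, Kat2a, Kat6b, Ash1l and Chd3, beside 1.8% and 4.23%. There the most distant genes, Kmt2e at 1.42 and Yaf2 at -2.58, did not pass.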

How the data were processed

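Libraries of 89 single cells were made with a full-length template-switching kit (SMART-Seq v4) and Nextera XT, per the labels' protocols, and no cell carries molecular identifiers. The authors deposited estimated counts per gene and cell and, in a second table, TPM. STAR, RSEM and the build mm10 are listed in the submitters' processing notes; versions and parameters are not given in the sources used here. Fractional values made up 4.44% of the deposited estimated counts above 0 (tolerance 1e-06); all were rounded. Near-identical gene copies could share such fractional reads. Classes and colours are the authors' deposited annotation.

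Counts were scaled to CPM and taken as log2(CPM + 1). For each group the mean with its SD, the percentage of its cells read (exact Clopper-Pearson 95% interval) and the summed CPM (exact Poisson 95% interval) were computed with Python 3.11.15, pandas 2.3.3 and scipy 1.17.1. A gene was measured if read in at least 10% of the 89 cells. The labels name no animal, so there was 1 sample per group and no p-value. Doublets were not called. Cells were sorted singly, which does not exclude them. Sums of markers of other types reached 14194 CPM (mural) and 4981 CPM (endothelial) in Pdgfra-low aNSC, and 45598 CPM (oligodendrocyte) in green qNSC cells. The procedure was tested on simulated data. Alternatives were TPM, a pseudocount of 10, thinning, other gene filters, recentring, detection at 10 counts, cells left out by marker or depth, and each age alone. Leaving out the highest cell of each group, gene by gene, was added after the data were seen.

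The 39 members, the 140 further chromatin genes and the marker lists were chosen with earlier results of these data known. Every member past the size rule was named, with fuller values for the 6 largest differences each way, and levels were given for 16 members fixed by name; of the further genes, those with the largest difference each way were named. Genes named because they missed a single criterion, the members highest and lowest in TPM, Arid1a in blue cells and the 6 further genes lower with age were chosen after their values were seen. Gene positions are those of GENCODE M21 on the same build. A planned comparison of the paralogs' proteins was not made.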

Additional observations from a re-analysis of the deposited data

Results flagged for a closer look

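Within the ages, 5 pairs of differences in mean log2(CPM + 1) passed the size rule in opposite directions at 2 and 4.5 months, and the difference between the ages was not tested. In IPC against Pdgfra-low aNSC cells, Eed was at 2.51 at 2 months and -3.89 at 4.5 months, and Tet1, which oxidises methylated cytosine, at -2.37 and 1.33. In Pdgfra-high against Pdgfra-low aNSC cells, Jarid2 was at -1.98 and 4.23, Rnf2 at 5.89 and -1.56, and Smarcc1 at 2.65 and -1.72. The groups held 5 and 6 IPC, 7 and 4 Pdgfra-low, and 4 and 3 Pdgfra-high cells at the 2 ages. At 2 months the rule took 2017 of the 9989 measured genes as higher in IPC and 1650 as lower, and at 4.5 months 2012 and 2080. In Pdgfra-high against Pdgfra-low aNSC these counts were 2126 and 1582, then 2081 and 2315.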

How the results depend on the processing

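No paired analysis was possible because the numbers in the cells' titles name cells and no label ties a cell of 1 group to a cell of another. Every group is 1 sample of cells, many members were read in a few cells only, and small groups pass the size rule at many genes, so counts are to be read beside the shares over all genes.

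Of the members past the rule, Hdac2 and Smarce1 in IPC against Pdgfra-low aNSC and Hdac1 in Pdgfra-high against Pdgfra-low aNSC kept their call under all 11 alternatives of the first set; 12 of the other 13 members higher in IPC kept their sign. Smarca4 reversed, to -1.63, with 4.5-month cells only. Ezh2 in IPC lost its call only where genes had to be read in 50% of cells, a filter that removes it, and ranged from 4.34 to 8.50. That filter left 3 members higher and 0 lower in IPC (main: 15 and 1), 3 higher in Pdgfra-low aNSC against qNSC (6), 1 higher and 1 lower in Pdgfra-high aNSC (6 and 3), 1 higher in green qNSC (2), and 0 and 0 by age (2 and 1), because fewer genes are tested. Of the 2649 genes it left, 222 were higher and 515 lower in IPC, and 211 higher in Pdgfra-low aNSC against qNSC. In Pdgfra-high aNSC 231 were higher and 281 lower, in green qNSC 112 higher, and by age 27 and 87.

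For the members lower in IPC, the count of 1 became 0 with a pseudocount of 10, 4 in thinned cells, 2 without cells with markers of other types, 3 without cells under 500000 counts, 3 at 2 months and 7 at 4.5 months. Over all 9989 measured genes, the count of 1629 lower became 957, 1789, 1498, 1575, 1650 and 2080 in the same order. In Pdgfra-low aNSC against qNSC, recentring left 2 higher and 1 lower, and the count of 0 lower became 1 with detection at 10 counts, without cells with markers of other types, without shallow cells and at 4.5 months. Among all genes, recentring left 617 higher and 482 lower, and the 278 lower became 303, 324, 646 and 963 in that order. In Pdgfra-high aNSC, 3 were higher with a pseudocount of 10, and 10 were lower at 4.5 months, beside 1218 and 2315 of all genes. In green against red qNSC, the 2 higher members became 1 with TPM, 0 with a pseudocount of 10, 4 with detection at 10 counts, 6 at 2 months (with 4 lower) and 4 at 4.5 months. For all genes, the 586 higher became 515, 216, 689, 934 (with 737 lower) and 990. By age in qNSC, the 2 higher became 1 with TPM, in thinned cells, with detection at 10 counts and without shallow cells. They became 0 with a pseudocount of 10. The 1 lower became 0 with that pseudocount and 2 without cells with markers of other types. Of all genes, the 180 higher became 143, 276, 185, 287 and 39, and the 423 lower became 115 and 507. The causes of these moves were not tested.

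Without the highest cell of either group, an alternative added to that set after seeing the data, both values passed for 12 of 15 higher and 0 of 1 lower members in IPC, 5 of 6 higher in Pdgfra-low aNSC against qNSC, 1 of 6 higher and 2 of 3 lower in Pdgfra-high aNSC, 1 of 2 higher in green qNSC, and 1 of 2 higher and 1 of 1 lower by age. Only the removal from the group with the higher level could lose a call. These counts are given for members only, with none over all measured genes beside them.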
